A study of Homo sapiens with 6 samples.

Results

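The genes described here encode the translation initiation factors, the proteins that bring a ribosome, the initiator tRNA and an mRNA together before protein synthesis starts. They were taken by gene symbol: every symbol that starts with EIF and a digit, without the EIF2AK kinases, EIF1AY, antisense and intronic transcripts and numbered pseudogenes. This gave 53 of 59151 genes in the deposited table, among them the 3 eIF4E-binding inhibitors EIF4EBP1, EIF4EBP2 and EIF4EBP3. The symbols EIF4A1P and EIF4BP5p also met the rule by their letters. RefSeq lists EIF4A1P as a pseudogene, EIF4A1P1, and has no entry for EIF4BP5p. The symbol EIF2S3L is called EIF2S3B in RefSeq. A mean of at least 1 FPKM (fragments scaled to the gene's length and the library's total) over all libraries was reached by 49 of the 53, which were tested. The 4 others were EIF5A2, EIF4BP5p, EIF4E1B and EIF4A1P.

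The cells were forebrain neuron progenitors at day 26, differentiated from the established human embryonic stem line H9. The labels give these cells both as neuron progenitors and as neurons. The control group is labelled scramble and wild type. The knockdown groups had shRNA1 or shRNA2, short hairpin RNAs directed at circRTN4(2,3), a circle spliced from exons of RTN4, the gene of a reticulon protein of the endoplasmic reticulum. Each of the 3 groups had 2 libraries of ribosome-depleted total RNA. The labels do not say whether the replicates are separate cultures, and the p-values may therefore rest on technical spread alone. All groups share the cell line, the stage and the library protocol.

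Initiation begins when eIF2 carries the initiator tRNA to the small ribosomal subunit, which also holds eIF1, eIF1A, eIF5 and the large eIF3 complex. The eIF4 factors then bind the mRNA cap (eIF4E), bridge it to the ribosome (eIF4G) and unwind the leader (eIF4A, helped by eIF4B and eIF4H), and the complex scans to the start codon. Control acts mainly at the recycling of eIF2 by eIF2B, which eIF2 kinases block, and at eIF4E, which the 4E-BP proteins hold until the kinase mTORC1 phosphorylates them. In developing neurons, regulated initiation is known to set when particular mRNAs are read.

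RTN4, whose transcripts include the targeted circle, stood at 40.3 and 38.5 FPKM in the scramble libraries, 34.2 and 34.7 with shRNA1, and 31.2 and 31.3 with shRNA2. All 4 knockdown libraries were below both controls, but the gene did not pass the test (log2 fold change -0.26, SE 0.04, adjusted p = 0.135 in limma). A gene's FPKM joins reads of linear and circular transcripts, so it is no measure of the circle. Depth, estimated from the steps between low FPKM values, was 46634855 reads in scramble replicate 1 and 77187298 to 83629504 in the others. A single read on 1 kb was worth 0.0120 to 0.0214 FPKM. The least covered of the tested initiation factor genes were EIF4EBP3, EIF5AL1 and EIF4EBP1, with about 69, 195 and 290 reads in their lowest library. The median gap between replicates of the tested genes was 0.12 on the log2 scale for scramble, against 0.03 for shRNA1 and 0.04 for shRNA2. The fit gave each gene a single spread shared by all groups. The scramble gap therefore entered the error of every comparison, shRNA2 against shRNA1 included. Markers of forebrain progenitors were present (8 of 8, summed FPKM 198 to 222), as were neuronal markers (6 of 6). The neuronal sum was 336 to 357 in scramble and shRNA1 libraries and 305 to 306 in shRNA2 libraries. Choroid plexus markers summed to 6.61 and 7.08 FPKM in scramble (TTR alone 6.03 and 6.63) and to 0.268 to 0.968 in the knockdown libraries. Mesenchymal markers summed to 4.53 and 5.01 (COL3A1 alone 3.16 and 3.49) against 0.209 to 0.916. Pluripotency markers summed to 11.8 and 11.9 in shRNA2 libraries against 4.99 to 6.05 in the others. That shRNA2 sum was mostly LIN28A (5.90 and 5.63) and DPPA4 (5.60 and 5.95). POU5F1, NANOG and TDGF1 were also highest with shRNA2, but reached only 0.0498, 0.0687 and 0.241 FPKM. Markers of astrocytes, microglia or blood, and endothelium each summed to under 1 FPKM, oligodendrocyte lineage markers to between 1.74 and 2.36, and no marker was at 0 in every library. The part of these mixtures in the results below was not tested, and in bulk RNA fewer cells of a type and less RNA per cell cannot be told apart.

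Levels spanned a wide range, though an order between genes depends on the gene lengths used for FPKM, which the sources do not give. The summed FPKM of the initiation factor genes was 632 and 646 in scramble, 608 and 605 with shRNA1, and 551 and 551 with shRNA2, which in each library was 0.767% to 0.8% of the FPKM of protein-coding genes. EIF4G2, the gene of DAP5, an eIF4G relative that lacks the eIF4E-binding part, had the highest level, with a mean of 76.8 FPKM. It was followed by EIF1 (41.2), EIF2S3 (33.2), EIF4A2 (27.6) and EIF4H (26.9). At the other end, the cap-binding protein gene EIF4E had a mean of only 2.75 FPKM and EIF2D 1.28. EIF5A2, the second eIF5A gene, lay at 0.617 to 0.815 FPKM. EIF4E1B, a cap-binding protein known from oocytes, was listed at 0 in 2 libraries and reached 0.0371 in shRNA2 replicate 2. That is near the value that 3 reads on 1 kb give, though the joined exons of EIF4E1B span 3506 bases.

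**Figure D1:**
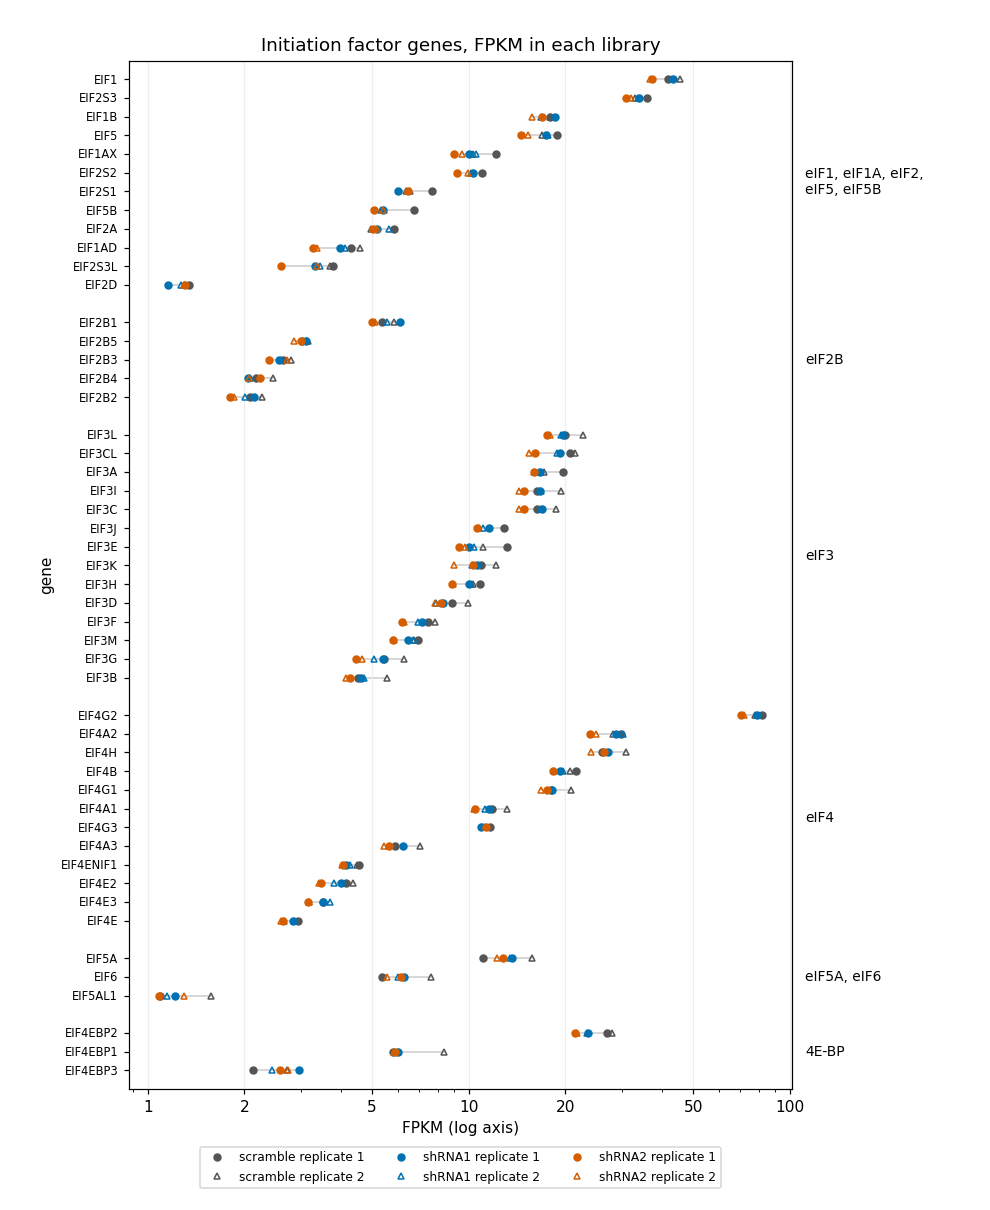
FPKM (log axis) of the 49 tested initiation factor genes, grouped by role, with 1 point per library. For most genes the shRNA2 points lie at the left end, and the scramble points are the farthest apart, as for EIF5A (11.1 and 15.8 FPKM).

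The first question is whether knockdown of circRTN4(2,3) went with other levels of these genes. No initiation factor gene passed the test in any comparison (limma on log2 of FPKM plus 1, Benjamini-Hochberg adjusted p under 0.05 over 18162 genes), so the differences that follow are values and not called changes. Both hairpins together against scramble gave 0 of 49 calls, against 0.0826% of all genes, and the smallest adjusted p was 0.115. At an unadjusted p under 0.05, 14 were lower and 0 higher, where 13.8% of all genes were past that line in either direction. The fitted difference was below 0 for 47 of 49, and for 7590 of 10150 protein-coding genes. The median was -0.13 on the log2 scale, where protein-coding genes had a median of -0.05. The count of 47 became 42 after median of ratios scaling and 37 after quantile normalization, with medians of -0.09 and -0.06. Every knockdown library was under both controls for 18 of 49, against 12.6% of all genes and 15.2% of protein-coding genes, and over both for 0.

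With shRNA1 alone, 0 of 49 were called (0.033% of all genes), and 4 were lower at an unadjusted p under 0.05 (8.97% of all genes, either direction). Of the 49, 41 were below 0, as were 5602 of 10150 protein-coding genes, and 34 of the 49 were after quantile normalization. The median was -0.08 against -0.01 for protein-coding genes. Both shRNA1 libraries lay below both controls for 21 of 49, where 18.9% of all genes and 21% of protein-coding genes did. With shRNA2 alone, 0 of 49 were called (0.628% of all genes) and the smallest adjusted p was 0.0569. At an unadjusted p under 0.05, 24 were lower and 0 higher (19.2% of all genes, either direction). Here 47 of 49 were below 0, or 42 and 39 after the other scalings. On the deposited scale 8281 of 10150 protein-coding genes were below 0. The median of the 49 was -0.19 against -0.09 for protein-coding genes. The shRNA2 libraries lay below both controls for 38 of 49, against 34.4% of all genes and 44.3% of protein-coding genes. Without scramble replicate 1, 17 of the 49 were called with shRNA2, all lower, in a fit that called 13.3% of all genes in place of 0.628%. Without scramble replicate 2, 5 were, with 2.94% of all genes. The hairpin comparisons share the scramble libraries, so their likeness is no separate evidence.

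The hairpins target the same circle and were also compared with each other, which leaves the controls out of the difference. The controls still enter its error, since the fit shares a single spread across the groups. shRNA2 against shRNA1 gave 0 of 49 calls (0% of all genes), with 10 lower and 0 higher at an unadjusted p under 0.05 (16.1% of all genes, either direction). Both shRNA2 libraries lay below both shRNA1 libraries for 36 of 49. That count was 21 and 18 after the other scalings. In this comparison 46.6% of all genes and 60.7% of protein-coding genes did so on the deposited scale, and 38.7% and 41.6% of protein-coding genes after the other scalings. On the deposited scale 44 of 49 were below 0, as were 7840 of 10150 protein-coding genes. The median was -0.10, against -0.08 for protein-coding genes. It was -0.02 after median of ratios scaling and 0.00 after quantile normalization, where only 26 of 49 were below 0. With limma's array weights 11 of the 49 were called, all lower, in a fit that called 12.9% of all genes. A pairwise fit of the hairpins alone called 3 of the 49, with 5.27% of all genes. When either scramble library was left out of the shared fit, 3 were called (EIF1, EIF3CL and EIF4A2), or 6.12% of the 49, a share near the 5.38% and 5.67% of all genes called there. Over all genes, called genes in the shRNA2 against scramble comparison were 34 higher and 80 lower, and 43 and 48 after median of ratios scaling or 37 and 34 after quantile normalization. The same split for both hairpins together was 1 and 14, then 10 and 18, and 12 and 18.

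**Figure D2:**
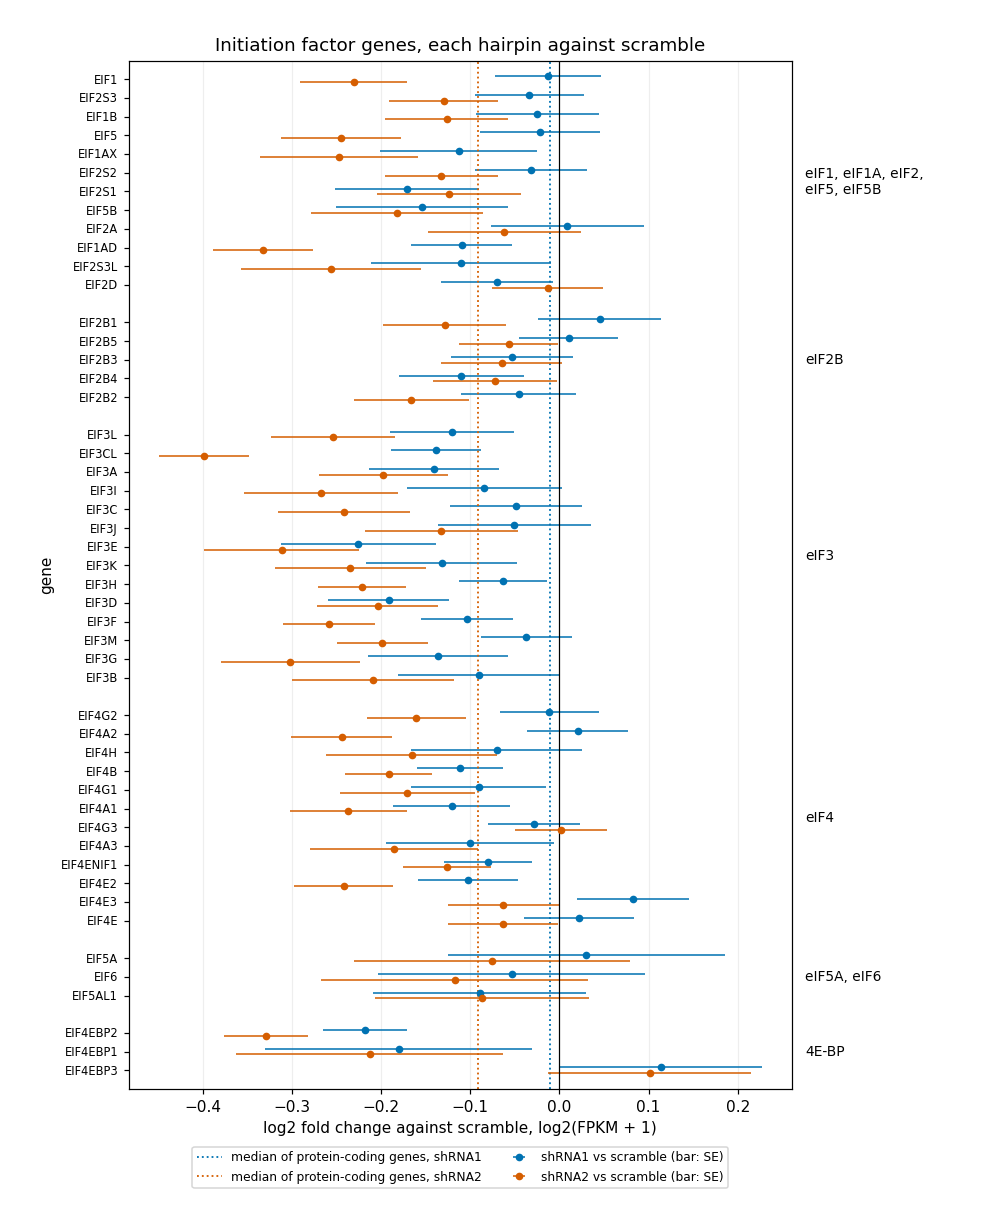
Log2 fold change of each initiation factor gene with shRNA1 and with shRNA2 against the same 2 scramble libraries (points, bars are SE from the limma fit), grouped by role, with dotted lines at the median of protein-coding genes (-0.01 and -0.09). The eIF3 genes are all left of 0 for both hairpins, and EIF4EBP3 is right of 0 for both.

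The factors that bring the initiator tRNA and pick the start codon are the 3 eIF2 subunits (EIF2S1, EIF2S2, EIF2S3, with the copy EIF2S3L), eIF1 (EIF1, EIF1B), eIF1A (EIF1AX), the GTPase activator EIF5, the subunit-joining GTPase EIF5B and the alternative tRNA carriers EIF2A and EIF2D. EIF1AD, which shares the eIF1A domain, was grouped with them by name. All 12 were below 0 in the comparison of both hairpins with scramble, as were 7590 of 10150 protein-coding genes. After median of ratios scaling 11 of the 12 were, and after quantile normalization 8. The median was -0.13. At an unadjusted p under 0.05, 1 of the 12 was lower, where 13.8% of all genes were past that line. The libraries stood apart for 4 of the 12 on the deposited scale, where they did for 15.2% of protein-coding genes, and for 2 of the 12 after either other scaling (10.6% and 10.3% of protein-coding genes). EIF1 (chr17:41688885-41692668, GRCh38), the most abundant of them and the factor that guards start codon choice, stood at 41.8 and 45.4 FPKM in scramble, 43.2 and 43.1 with shRNA1, and 37.3 and 36.6 with shRNA2. Its shRNA1 libraries fell inside the control range, and the shRNA2 libraries were below every other library. Against scramble, both hairpins together gave -0.12 (SE 0.05, adjusted p = 0.395), a sign that turned after quantile normalization (0.03), and the value was -0.08 after median of ratios scaling and -0.06 without scramble replicate 2.

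EIF1AD (chr11:65996545-66002157) had 4.29 and 4.59 FPKM in scramble, 3.98 and 4.10 with shRNA1, and 3.27 and 3.37 with shRNA2. The 3 groups did not overlap, and shRNA2 was the lowest. The differences were -0.22 (SE 0.05, adjusted p = 0.189) for both hairpins, -0.33 (SE 0.06, adjusted p = 0.0844) for shRNA2 and -0.22 (SE 0.06, adjusted p = 0.199) for shRNA2 against shRNA1. The 3 eIF2 subunit genes were not at like levels: EIF2S3, the tRNA-binding gamma subunit, lay between 30.8 and 36.0 FPKM, EIF2S2, the beta subunit, between 9.17 and 10.96, and EIF2S1, whose product is the alpha subunit that the eIF2 kinases phosphorylate, between 6.01 and 7.69. The copy EIF2S3L lay between 2.59 and 3.76, and reads shared with EIF2S3 could be split in either way. EIF5 lay between 14.5 and 18.8 FPKM, and its shRNA2 libraries (14.5 and 15.2) were the lowest. EIF5B had 6.73 FPKM in scramble replicate 1 and 5.06 to 5.46 in every other library, scramble replicate 2 included.

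The 5 subunits of eIF2B, which reload eIF2 with GTP and whose mutations are known to cause a white matter disease, were at even and low levels, with means from 2.03 (EIF2B2) to 5.50 FPKM (EIF2B1). Their differences from scramble with both hairpins ran from -0.11 to -0.02, with overlapping libraries for all 5. The median was -0.06, near that of protein-coding genes (-0.05), and -0.05 after quantile normalization. EIF2B1, the regulatory alpha subunit (chr12:123620406-123633686), had 5.37 and 5.86 FPKM in scramble, 6.11 and 5.54 with shRNA1, and 4.99 and 5.11 with shRNA2. An shRNA1 library reached above the controls and the shRNA2 libraries lay below them. For both hairpins this gave -0.04 (SE 0.06, adjusted p = 0.816), and 0.01 after quantile normalization or without scramble replicate 2.

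The eIF3 complex, the scaffold that holds the small subunit, the other factors and the mRNA, was the only role group with every tested gene below 0 in all 4 comparisons. Of 10150 protein-coding genes, 7590 were below 0 for both hairpins, 5602 for shRNA1, 8281 for shRNA2 and 7840 for shRNA2 against shRNA1. The 14 eIF3 genes had medians of -0.18 for both hairpins, -0.11 for shRNA1, -0.24 for shRNA2 and -0.14 for shRNA2 against shRNA1. The medians were -0.14, -0.11, -0.16 and -0.07 after median of ratios scaling, and -0.09, -0.07, -0.10 and -0.06 after quantile normalization. For the first 2 comparisons all 14 kept the sign after either other scaling. For shRNA2 against scramble 13 did after quantile normalization, and for shRNA2 against shRNA1 12 and 10 did. Knockdown libraries lay below both controls for 9 of 14 (15.2% of protein-coding genes), and for 7 and 5 after the other scalings (10.6% and 10.3% of protein-coding genes). With shRNA2 it was 14 of 14 (44.3% of protein-coding genes), or 12 and 11 after the other scalings, where 25.1% and 27% of protein-coding genes did so. None of the 14 was called, and the smallest adjusted p was 0.0569.

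EIF3CL (chr16:28379581-28426418) had 20.7 and 21.5 FPKM in scramble, 19.2 and 18.9 with shRNA1, and 16.1 and 15.4 with shRNA2. The groups stood apart, in the order scramble, shRNA1, shRNA2. The differences were -0.27 (SE 0.04, adjusted p = 0.128) for both hairpins, -0.14 (SE 0.05, adjusted p = 0.530) for shRNA1, -0.40 (SE 0.05, adjusted p = 0.0569) for shRNA2 and -0.26 (SE 0.05, adjusted p = 0.151) for shRNA2 against shRNA1. After quantile normalization the 4 values were -0.15, -0.06, -0.23 and -0.17. EIF3CL and EIF3C (chr16:28688558-28735730) are near-identical copies of the gene for the same eIF3c subunit, and how reads that match both were counted is not given in the sources used here. Their values are therefore uncertain one by one. EIF3C had 16.3 and 18.7 FPKM in scramble, 16.9 and 16.8 with shRNA1, and 14.9 and 14.4 with shRNA2.

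EIF3L (chr22:37849419-37889407), a peripheral subunit, had the highest eIF3 level after scaling by length in 5 libraries of the 6 when EIF3CL is counted, and in all 6 when it is left out. It stood at 19.99 and 22.7 FPKM in scramble, 19.6 and 19.4 with shRNA1, and 17.5 and 17.9 with shRNA2. Both hairpins lay below the controls (-0.19, SE 0.06, adjusted p = 0.290). The value was -0.07 after quantile normalization, -0.10 without scramble replicate 2, and -0.27 and called without scramble replicate 1 (adjusted p = 0.0471). EIF3D (chr22:36510855-36529166), the subunit that can itself bind the cap of some mRNAs, had 8.89 and 9.91 FPKM in scramble, 8.30 and 7.90 with shRNA1, and 8.19 and 7.86 with shRNA2. Here the hairpins overlapped each other while both lay below the controls (-0.20, SE 0.06, adjusted p = 0.261 for both hairpins, and -0.19, SE 0.07, adjusted p = 0.515 for shRNA1). Without scramble replicate 2 these were -0.13 and -0.12, and the first was -0.13 after quantile normalization. The order of the eIF3 genes by level hardly moved between libraries: without EIF3CL, ranks 9 to 13 were EIF3D, EIF3F, EIF3M, EIF3G and EIF3B in all 6. EIF3B, a core subunit, thus had the lowest FPKM, with a mean of 4.64, and EIF3A, the largest core subunit, a mean of 17.0. This order depends on the gene lengths used, which the sources do not give. For EIF3B the joined exons span 8998 bases and the longest coding transcript 3055, and for EIF3L 4296 and 3220. By transcript length the order could differ.

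The eIF4 group had 12 tested genes, and none was called. With both hairpins 11 were below 0, as were 7590 of 10150 protein-coding genes. Only 9 of the 12 were after median of ratios scaling and 7 after quantile normalization, and their median moved from -0.12 to -0.07 and -0.01. EIF4G2 (chr11:10797046-10808926) had 81.8 and 77.8 FPKM in scramble, 79.2 and 79.1 with shRNA1, and 70.7 and 71.9 with shRNA2. Its shRNA1 libraries lay between the controls and its shRNA2 libraries below all others. The difference for both hairpins was -0.09 (SE 0.05, adjusted p = 0.510) and turned to 0.09 after quantile normalization, and it was -0.04 after median of ratios scaling and -0.05 without scramble replicate 1. EIF4A2 (chr3:186783577-186789897), the helicase paralog that is known to be abundant in brain, had 29.9 and 28.2 FPKM in scramble, 28.8 and 30.1 with shRNA1, and 23.9 and 24.8 with shRNA2. The shRNA1 libraries lay in or just above the control range, and the shRNA2 libraries below it. shRNA2 against shRNA1 gave -0.27 (SE 0.06, adjusted p = 0.170), or -0.15 after quantile normalization. Both hairpins against scramble gave -0.11 (SE 0.05, adjusted p = 0.410), or -0.07 after median of ratios scaling or without scramble replicate 1, and 0.00 after quantile normalization.

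The helicase paralog EIF4A1 was at 10.4 to 13.2 FPKM, and EIF4A3, the paralog of the exon junction complex, at 5.44 to 7.05. Of the scaffolds, EIF4G1 lay between 16.8 and 20.8 FPKM and EIF4G3 between 10.9 and 11.6, and EIF4G3 showed the narrowest range of the pair, with fitted differences from -0.03 to 0.03 in the 4 comparisons. Of the cap-binding proteins, EIF4E had 2.93 and 2.65 FPKM in scramble, 2.83 and 2.86 with shRNA1, and 2.64 and 2.60 with shRNA2. The repressive cap-binding protein gene EIF4E2 had 4.15 and 4.37, then 4.01 and 3.79, then 3.47 and 3.43, with no overlap between groups. EIF4E3 was the only gene of this group above 0 with both hairpins (0.01) by the deposited scale. EIF4ENIF1, which carries eIF4E into the nucleus and to mRNA decay sites, lay between 4.04 and 4.55.

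EIF5A acts mostly in elongation and termination despite its name, and EIF6 keeps the large subunit from joining early. Together with EIF4EBP1, EIF5A and EIF6 differed most between the control libraries among the tested initiation factor genes. EIF5A (chr17:7306999-7312463) had 11.1 and 15.8 FPKM in scramble, 13.6 and 13.4 with shRNA1, and 12.8 and 12.2 with shRNA2. Every knockdown library lay between the controls (-0.02, SE 0.13, adjusted p = 0.962), and leaving out scramble replicate 1 or 2 gave -0.26 or 0.21. EIF6 had 5.38 and 7.65 FPKM in scramble and 5.57 to 6.29 in the knockdown libraries. EIF5AL1, a near copy of EIF5A that can share its reads, lay between 1.08 and 1.58.

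The 4E-BP proteins bind eIF4E and keep eIF4G from it. EIF4EBP2 (chr10:70404145-70428618), the main 4E-BP of brain, had 26.9 and 27.9 FPKM in scramble (27.4 ± 0.668, SD, n = 2), 23.5 and 23.4 with shRNA1 (23.4 ± 0.0310, SD, n = 2), and 21.5 and 21.7 with shRNA2 (21.6 ± 0.178, SD, n = 2). The groups did not overlap, and the gap to the controls was several times the replicate gap. It had the smallest p among the initiation factor genes for both hairpins (-0.27, SE 0.04, adjusted p = 0.115) and for shRNA1 (-0.22, SE 0.05, adjusted p = 0.336), and the next smallest for shRNA2 (-0.33, SE 0.05, adjusted p = 0.0657). After quantile normalization the first and last of these were -0.16 and -0.16. Without scramble replicate 1 it was called for both hairpins (adjusted p = 0.0445), together with EIF4EBP1, EIF3I, EIF3L and EIF3CL. That is 5 of the 49, or 10.2%, in a fit that called 2.79% of all genes. With only protein-coding genes in the fit and its adjustment, EIF3CL (adjusted p = 0.0175), EIF4EBP2 (0.0253) and EIF1AD (0.0335) were called for shRNA2, or 6.12% of the 49, where 3.69% of protein-coding genes were.

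The other 4E-BP genes did not share that pattern of values. EIF4EBP1 had 5.80 and 8.34 FPKM in scramble, 6.04 and 6.03 with shRNA1, and 5.91 and 5.85 with shRNA2. The knockdown libraries, at 5.85 to 6.04, were near scramble replicate 1 (-0.20, SE 0.13, adjusted p = 0.575), and scramble replicate 2 stood high. Without scramble replicate 2 the value was 0.03, and without scramble replicate 1 it was -0.43 and called (adjusted p = 0.0442). EIF4EBP3 (chr5:140547662-140549576), the least abundant, had 2.13 and 2.71 FPKM in scramble, 2.96 and 2.44 with shRNA1, and 2.58 and 2.74 with shRNA2. These ranges overlap (0.11, SE 0.10, adjusted p = 0.696), the value was -0.02 without scramble replicate 1 and 0.23 without scramble replicate 2, and transcripts that run through from the gene ANKHD1 upstream could add reads.

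Ratios of FPKM within a library are not changed by a single scaling factor per library, though quantile normalization does change them, and 10 pairs of related factors were compared in that way. The pairs were chosen after the values were seen, so no test is given. The ratio of EIF4EBP2 to its target EIF4E was 9.19 and 10.5 in scramble, 8.28 and 8.19 with shRNA1, and 8.13 and 8.35 with shRNA2. It was lower in every knockdown library than in both controls. The ratio of EIF3CL to EIF3C was 1.27 and 1.15, then 1.14 and 1.13, then 1.08 and 1.08, and the ratio of EIF4E to EIF4E2 was 0.706 and 0.606, then 0.707 and 0.753, then 0.762 and 0.760. The first was lower and the second higher in all 4 knockdown libraries, by a small step for shRNA1. The EIF3CL to EIF3C ratio is uncertain, since how reads that match both copies were counted is not given. In the other 7 pairs the knockdown and scramble libraries overlapped. Among them, EIF4A2 was 2.14 to 2.69 times EIF4A1, EIF4G2 was 3.74 to 4.52 times EIF4G1, EIF1 was 2.20 to 2.57 times EIF1B, and EIF5A was 13.6 to 22.8 times EIF5A2.

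**Figure D3:**
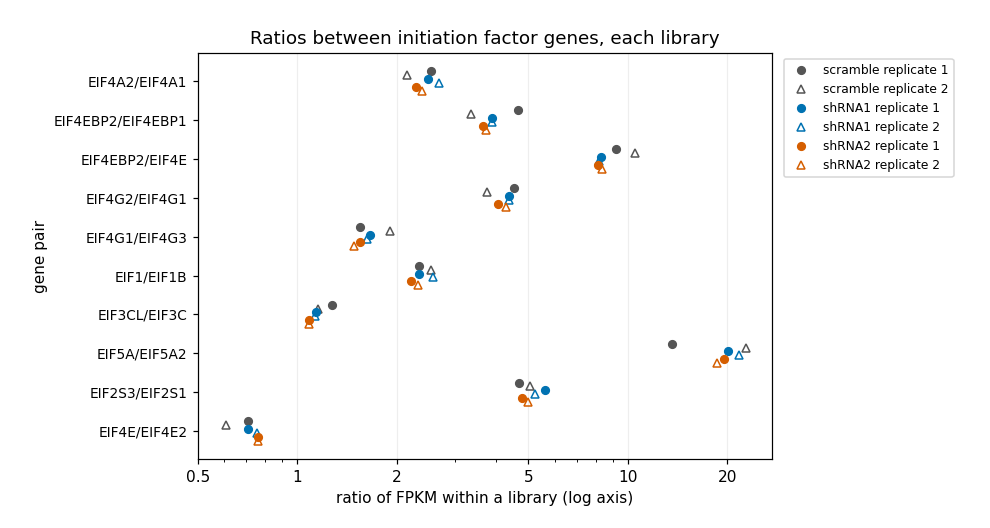
Ratio of FPKM between 2 initiation factor genes in each library (log axis), for 10 pairs. The EIF4EBP2 to EIF4E ratio is 8.13 to 8.35 in the knockdown libraries and 9.19 and 10.5 in scramble, while the EIF5A to EIF5A2 ratio is spread most between the scramble libraries.

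Many mRNAs of the translation machinery begin with a terminal oligopyrimidine (TOP) tract, a C at the cap followed by an unbroken run of C and T (U in the mRNA), through which mTORC1 and the protein LARP1 govern their translation. RefSeq start windows (GRCh38.p14) were matched for 42 of the 53 genes. At an annotated start, 9 of the 42 (21.4%) had a C followed by at least 4 bases that were each C or T, read on the gene's own strand. Over all matched genes this held for 5.14%, over protein-coding genes for 6.24%, and over all 35116 windows for 4.07%. The 9 are printed here with 15 bases before the annotated start and 15 from it, the run of C and T from the start in capitals, since the start of the message is what defines the class.
EIF3D (chr22:36529152-36529181, minus strand): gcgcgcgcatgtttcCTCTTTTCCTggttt
EIF3F (chr11:7987322-7987351, plus strand): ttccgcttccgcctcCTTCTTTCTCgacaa
EIF3K (chr19:38619173-38619202, plus strand): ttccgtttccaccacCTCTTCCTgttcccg
EIF3M (chr11:32583816-32583845, plus strand): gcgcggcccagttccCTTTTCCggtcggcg
EIF2A (chr3:150546772-150546801, plus strand): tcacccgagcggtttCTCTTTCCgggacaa
EIF2D (chr1:206612451-206612480, minus strand): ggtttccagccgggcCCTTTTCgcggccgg
EIF2S3 (chrX:24054941-24054970, plus strand): ggggtgatttccttcCTCTTTTggcaacat
EIF4A2 (chr3:186783562-186783591, plus strand): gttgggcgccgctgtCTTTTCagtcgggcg
EIF4B (chr12:53006441-53006470, plus strand): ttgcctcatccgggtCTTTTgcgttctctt
The runs were longest in EIF3D and EIF3F, with 10 bases each, and shortest in EIF4B, with 5. Starts without such a run are shown for the paralog EIF4A1, whose run is 3 bases, and for the genes EIF4EBP2, EIF1AD and EIF1, whose values are given above.
EIF4A1 (chr17:7572810-7572839, plus strand): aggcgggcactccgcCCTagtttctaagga
EIF4EBP2 (chr10:70404130-70404159, plus strand): ctcccgccttcgcccgcttccggtcgtcgt
EIF1AD (chr11:66002143-66002172, minus strand): cgagacagcgccggaagtacggttttcgga
EIF1 (chr17:41688870-41688899, plus strand): aggcaccgcccctctgccccagtcactgag
Among the paralogs, EIF4A2 has the run and EIF4A1 does not. A run at an annotated start is a description of the sequence, since a start used in these cells can lie some bases away.

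The genes with such a start were set beside the others. With both hairpins against scramble their median difference was -0.12, and that of the 31 tested genes with another start -0.11. With shRNA2 the medians were -0.20 and -0.16, and for shRNA2 against shRNA1 both were -0.10. The 9 tested genes without a matched start window, EIF3E and EIF3H among them, could be put in neither set. Their medians in the same comparisons were -0.19, -0.25 and -0.13. No test is given for these medians. The genes EIF3E, EIF3F, EIF3H and EIF4B, reported as TOP mRNAs, were each lower in all 4 knockdown libraries than in both controls. So were 15.2% of protein-coding genes and 4 of the 9 genes with a C and T start, and those 4 include EIF3F and EIF4B. The median of the reported TOP genes was -0.17 for both hairpins and -0.24 for shRNA2, and none was called. For EIF3F the values were 7.45 and 7.86 FPKM in scramble, 7.16 and 6.95 with shRNA1, and 6.19 and 6.28 with shRNA2. For EIF4B they were 21.5 and 20.7, then 19.2 and 19.7, then 18.3 and 18.5. Against scramble, shRNA2 gave -0.26 for EIF3F (SE 0.05, adjusted p = 0.109), -0.22 for EIF3H (SE 0.05, adjusted p = 0.127), -0.19 for EIF4B (SE 0.05, adjusted p = 0.149) and -0.31 for EIF3E (SE 0.09, adjusted p = 0.166). After quantile normalization these were -0.16 for EIF3F, -0.09 for EIF3H, -0.02 for EIF4B and -0.18 for EIF3E. After median of ratios scaling EIF3H was at -0.14 and EIF4B at -0.11, and without scramble replicate 1 EIF3E was at -0.20.

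Genes that act on the initiation factors were read in the same fit, and 0 of them were called in any comparison. A list of 10 genes held eIF2 kinases, phosphatase subunits and GCN2 partners, together with BZW1 and BZW2. Of these, 2 were lower and 0 higher at an unadjusted p under 0.05 with both hairpins, with a median of -0.10. Over all genes 13.8% were past that line in either direction, and protein-coding genes had a median of -0.05. IMPACT, a brain-enriched inhibitor of the kinase GCN2, had 4.63 and 4.41 FPKM in scramble, 4.23 and 4.32 with shRNA1, and 3.67 and 3.73 with shRNA2, so the groups did not overlap. Every knockdown library was below both controls for 15.2% of protein-coding genes. Of 12 tested genes of mTORC1 and MNK signalling, 0 were past that line, with a median of -0.03. Of 13 partners such as poly(A)-binding protein, 1 was lower, with a median of -0.08. It was PABPC1, whose product joins the tail of the mRNA to eIF4G, with 46.1 and 43.5 FPKM in scramble, 39.2 and 40.6 with shRNA1, and 38.9 and 37.2 with shRNA2. All its knockdown libraries lay below the controls (-0.20, SE 0.05, adjusted p = 0.225), as did those of 15.2% of protein-coding genes.

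A list of 8 tested genes held ATF4 and genes that it induces when eIF2 is phosphorylated. Of these, 1 was higher at an unadjusted p under 0.05 with both hairpins, and the median was -0.04. Over all genes 13.8% were past that line in either direction. The exception was SLC7A11, the cystine transporter, with 1.39 and 1.16 FPKM in scramble, 1.51 and 1.59 with shRNA1, and 2.13 and 2.08 with shRNA2. It was higher in all 4 knockdown libraries than in both controls (0.31, SE 0.06, adjusted p = 0.177), as were 278 of 10150 protein-coding genes. ATF4 itself lay between 24.6 and 28.0 FPKM. Several initiation factor genes hold small nucleolar RNAs within their spans, for example SNORA48 and SNORD10 in EIF4A1 and SNORA63 and SNORD2 in EIF4A2. For 10 tested ones the median with both hairpins was 0.00, with 5 above and 5 below 0. SNORA48 had 14.7 and 36.4 FPKM in the scramble libraries and SNORA63 had 17.8 and 40.1, while their knockdown libraries were at 18.6 to 28.3 and at 29.9 to 41.4.

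The gap between the scramble libraries followed base composition. Across the 49 genes, scramble replicate 2 minus replicate 1 went with the GC content of the longest coding transcript (Pearson r = 0.826, Spearman rho = 0.828), and it did so over 10090 protein-coding genes (r = 0.861). All points of such a correlation come from the same 2 libraries and the genes are not independent, so it is a description. The GC-rich genes EIF5A, EIF4EBP1 and EIF6 were 0.47, 0.46 and 0.44 higher in replicate 2, and the AT-rich genes EIF5B, EIF3E, EIF3J and EIF1AX were lower by 0.26 to 0.22. Replicate 2 minus replicate 1 gave r = -0.348 for shRNA1 and -0.421 for shRNA2 across the 49, and -0.196 and -0.569 over protein-coding genes. The difference between both hairpins and scramble, which averages the replicates, showed no such relation (r = -0.024 across the 49). The gap between the controls was larger than the difference of both hairpins from scramble for 27 of 49 genes, and for 7304 of 10150 protein-coding genes.

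**Figure D4:**
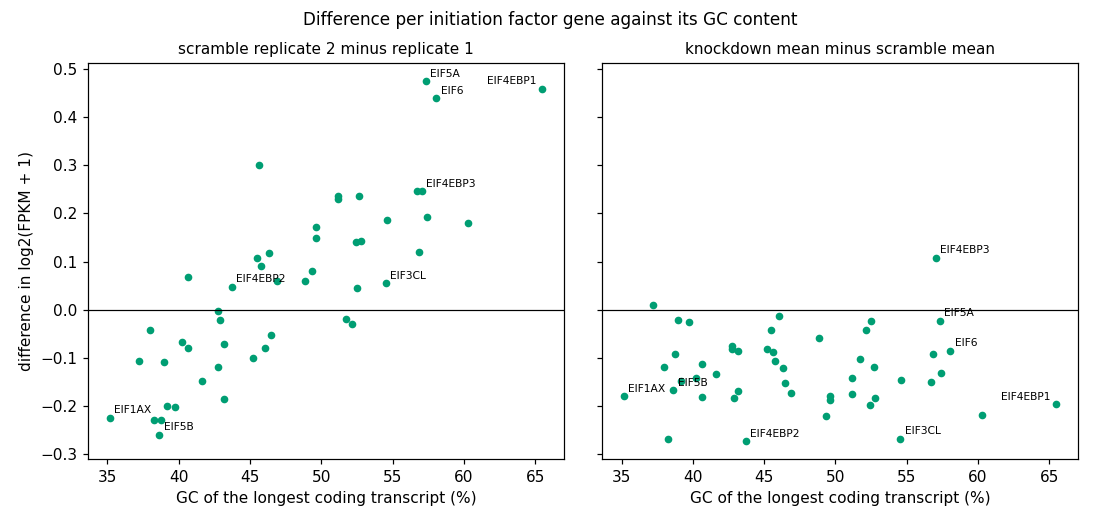
Difference in log2(FPKM + 1) of each initiation factor gene against the GC content of its longest coding transcript (%), left between the 2 scramble libraries and right between the knockdown and scramble means. The left panel climbs from EIF1AX and EIF5B to EIF5A and EIF4EBP1 (r = 0.826) and the right panel is level (r = -0.024).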

How the data were processed

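Total RNA was depleted of ribosomal RNA and sequenced, per the labels' protocols. The submitters' processing notes name featureCounts 2.0.1, SAMtools 1.9, HISAT2 2.1.0 and Trimmomatic 0.39, and the builds GRCh38 and hg38. The sources used here do not give the annotation, the strand setting or how reads that match several genes were counted. The authors deposited an FPKM value for each symbol in each library, per the file headers. Whole reads could not be recovered for most genes: 22.6% to 23.8% of values came out whole within 0.01 reads with GENCODE gene lengths, so no count test was run and the depths are estimates.

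Values were taken as log2(FPKM + 1), which understates changes of low genes. The 18162 genes whose mean reached 1 FPKM were fitted with limma 3.58.1 in R 4.3.3 with a mean-variance trend over all 3 groups, and p-values were Benjamini-Hochberg adjusted over all of them. Calls were made where the adjusted p was under 0.05. The fit was tested on simulated data, with planted changes larger than any initiation factor difference between groups given here. How often it would call differences of the sizes given here was not tested. Alternatives were a pseudocount of 0.1, other filters and scalings, array weights, no trend, a replicate block, pairwise fits and leaving out each library.

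The initiation factor genes and all lists were chosen with earlier results of these data known. Values in every library were given for the 3 genes with the smallest p in each comparison, the most abundant gene of each role, the inhibitors, RTN4, PABPC1 and the 2 genes outside the family with the smallest p. EIF3C, EIF4E, EIF4E2, EIF3F, EIF4B, IMPACT and the paralog pairs were added after their values were seen. Positions and start sequences are RefSeq's, GRCh38.p14.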

Additional observations from a re-analysis of the deposited data

How the results depend on the processing

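For shRNA1 no initiation factor gene was called under any alternative. For both hairpins together the count of called genes was 0 except without scramble replicate 1 (leave-one-out range 0 to 5, with 2.79% of all genes called in that fit). For shRNA2 it was 2 of 35 when a mean of 5 FPKM was required (5.69% of all genes in that fit), 3 with protein-coding genes only (3.69%), 17 without scramble replicate 1 (13.3%) and 5 without scramble replicate 2 (2.94%; leave-one-out range 0 to 17), and 0 otherwise. For shRNA2 against shRNA1 it was 11 with array weights (12.9% of all genes), 3 with the pairwise fit (5.27%), and 0 to 3 in the leave-one-out fits, where the 3 (EIF1, EIF3CL and EIF4A2) appeared without either scramble library (5.38% and 5.67%). A lone library left in a group is assumed to vary like the others. The median log2 fold change stayed below 0 throughout. For both hairpins it was -0.0889 with median of ratios, -0.0591 with quantile normalization and -0.1513 to -0.112 leaving out libraries. For shRNA1 it was -0.0947 with a pseudocount of 0.1, -0.0467 with quantile normalization and -0.0851 to -0.0501 leaving out libraries. For shRNA2 it was -0.2096 with a pseudocount of 0.1, -0.1708 with no filter, -0.1099 with median of ratios, -0.072 with quantile normalization and -0.1966 to -0.1633 leaving out libraries. For shRNA2 against shRNA1 it was -0.024 with median of ratios and -0.0022 with quantile normalization. Of 384 values of named genes under alternatives, 347 kept direction and side of the threshold, 27 passed it and 10 changed sign, all for both hairpins. Those were EIF5A with median of ratios (0.0183), EIF4A2 (0.0027), EIF4G2 (0.0851), EIF2B1 (0.0133), EIF5A (0.067) and EIF1 (0.0329) with quantile normalization, and, leaving out libraries, EIF4EBP3 (-0.0155 to 0.2302), EIF2B1 (-0.0955 to 0.012), EIF5A (-0.26 to 0.2145) and EIF4EBP1 (-0.4262 to 0.0332). The cause was not tested. Of the 25 named values, 18 moved by over 1.5 times or changed sign with quantile normalization, 7 with median of ratios, 7 without scramble replicate 1 and 8 without scramble replicate 2. Replicate differences of scramble and shRNA1, scramble and shRNA2, and shRNA1 and shRNA2 correlated at -0.008, -0.15 and 0.012 over all genes tested. Over protein-coding genes these correlations were -0.194, -0.569 and 0.124. They cannot show whether the replicate numbers pair the libraries. The scramble replicate difference rose with GC content and the shRNA2 one fell with it, and that alone shifts such correlations. With the replicate block, 0 initiation factor genes were called in each comparison (11, 1, 17 and 5 at an unadjusted p under 0.05), and over all genes 1, 0, 0 and 0 were called in place of 15, 6, 114 and 0. With the numbers of shRNA2 crossed, an alternative chosen after seeing the data, 0 were called against scramble. Depth limits EIF4EBP3 most, with about 69 reads in its lowest library.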
